A study of Homo sapiens with 14 samples.

Results

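The formyl peptide receptors FPR1, FPR2 and FPR3 were followed through 14 RNA-seq libraries of the human myeloid leukemia cell lines PLB-985 and HL-60, which take on neutrophil features when differentiated. The members were the rows of the table of normalized values that carry one of these gene symbols and an NCBI gene ID. They are 3 of the 37466 rows with such an ID and of 60707 rows in all: FPR1 (ENSG00000171051.8, NCBI gene 2357), FPR2 (ENSG00000171049.8, NCBI gene 2358) and FPR3 (ENSG00000187474.4, NCBI gene 2359).

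Formyl peptide receptors are G protein-coupled receptors of phagocytes that sense peptides starting with N-formylmethionine, which bacteria and damaged mitochondria release. Binding activates Gi proteins, and the freed G protein subunits switch on phospholipase C and phosphoinositide 3-kinase, with chemotaxis, degranulation and an oxidative burst as the known outcomes in neutrophils. FPR1 is the high-affinity receptor for the classical formyl tripeptide, FPR2 binds a wide range of formylated and other ligands such as annexin A1 and serum amyloid A, and FPR3 is known from monocytes, macrophages and dendritic cells.

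Each line was sequenced in 3 states with 2 replicates each. Cells were differentiated for 6 days in medium with 1.3% DMSO, 2% Nutridoma, a serum substitute, and 0.5% FBS, or for 6 days in medium with 1.3% DMSO and 9% FBS, and undifferentiated cells were grown in 9% FBS. With and without Nutridoma, both the serum and the supplement thus differ. Single libraries of days 2 and 4 were added for PLB-985 cells in DMSO with Nutridoma. An H2B-mCherry reporter was present in PLB-985 but not in HL-60 cells, so line and reporter cannot be told apart, and PLB-985 is itself reported to be a sub-line of HL-60. The sequencing experiment was run on separate days more than 2 months apart, and which replicate number belongs to which day is not given in the sources used here.

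The unit throughout is normalized FPKM, fragments scaled to transcript length and library depth, multiplied by the authors with 1 factor per library. The factors were between 0.596 and 0.804, and the deposited FPKM summed to between 739094 and 1082040 per library. The tables hold no read counts, but the value of a single read can be seen in genes with 1 transcript, which puts the depth at an estimated 27100000 to 38500000 reads per library. The 10 neutrophil marker genes, S100A8, S100A9 and ITGAM among them, summed to between 11080 and 19950 in the 8 libraries of day-6 differentiated cells. In the 4 undifferentiated libraries they summed to between 208.4 and 498.9. S100A8 and S100A9 gave most of the sum in day-6 differentiated cells, with group means of 2121 to 5007 and 9987 to 12880. No other of the 10 had a group mean above 179.5 there. FCGR3B, a marker of mature neutrophils, had group means of 1.80 or less. All 10 rose in PLB-985 cells in DMSO with Nutridoma, 9 in DMSO, and 6 and 9 in HL-60 cells, where 24%, 24.6%, 25.5% and 26% of all genes tested rose. Monocyte and macrophage markers moved in the same comparisons: the 13 genes summed to between 51.2 and 845 in the 8 libraries of day-6 differentiated cells and to between 19.4 and 33.7 in the 4 undifferentiated ones. Of the 9 that were tested, 6 rose and 0 fell in PLB-985 cells in DMSO with Nutridoma, and 4 rose and 1 fell in DMSO. In HL-60 cells 9 rose and 0 fell in DMSO with Nutridoma, and 5 rose and 2 fell in DMSO. VCAN reached the level required for testing only in HL-60 cells in DMSO with Nutridoma, so its rise there was largely fixed in advance. The part of these markers in the receptor increases given below was not tested. The 4 markers of immature cells, MPO, ELANE, MYB and MKI67, fell in all of these comparisons. Of the 6 eosinophil and basophil markers tested, 3 fell and 0 rose with Nutridoma in each line, and in DMSO 4 fell and 1 rose in PLB-985 cells and 3 fell and 1 rose in HL-60 cells.

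The 3 genes lie side by side on chromosome 19 of GRCh38. By RefSeq, FPR1 occupies positions 51745172 to 51751878 on the minus strand, FPR2 51761180 to 51770531 on the plus strand and FPR3 51795157 to 51826190 on the plus strand, within 81019 bases. In GENCODE 44 no exon base of one overlaps an exon of another, although further annotated transcripts extend the FPR1 span to 51804115, across FPR2. The receptors are paralogs, so the origin of a read could be in doubt. Over the coding sequence, FPR1 and FPR2 had 76.3% identical bases, FPR1 and FPR3 70.2%, and FPR2 and FPR3 81.1%. Over 75 bases, the length of 1 read, the coding sequences of FPR1 and FPR2 are most alike at coding bases 103 to 177. Likeness to FPR3 and untranslated bases did not enter this choice. The stretch is shown for all 3 genes because reads from it are hard to assign, with capitals at the 3 positions where any of the genes differ:

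FPR1: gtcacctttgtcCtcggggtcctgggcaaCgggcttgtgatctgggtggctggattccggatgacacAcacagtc
FPR2: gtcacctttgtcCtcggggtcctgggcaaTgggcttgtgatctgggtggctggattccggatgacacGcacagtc
FPR3: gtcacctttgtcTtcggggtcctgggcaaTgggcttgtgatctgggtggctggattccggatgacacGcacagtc

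Within this stretch FPR1 and FPR2 differ at 2 positions, FPR1 and FPR3 at 3, and FPR2 and FPR3 at 1. Of the 2567 distinct 75-base stretches in the annotated FPR1 transcripts, 3598 in those of FPR2 and 2702 in those of FPR3, 0 occurred in another receptor and 0 in any other gene. An error-free read therefore has 1 gene of origin, but a read from this stretch with a sequencing error can be as close to its neighbor.

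FPR1 transcripts ranked between 9222nd and 11857th by level among the rows with an NCBI gene ID in undifferentiated libraries and between 220th and 611th in the day-6 differentiated ones. In PLB-985 cells, FPR1 had 333.1 and 211.2 normalized FPKM in DMSO with Nutridoma and 152.2 and 185.4 in DMSO, against 0.551 and 0.593 in undifferentiated cells (replicates 1 and 2). In HL-60 cells it had 238.2 and 198.6 in DMSO with Nutridoma and 116.4 and 113.3 in DMSO, against 1.24 and 2.23 in undifferentiated cells. No differentiated library overlapped an undifferentiated one in either line, but the share of all genes for which this holds was not determined. The group means were 272 ± 86.2, 169 ± 23.5 and 0.572 ± 0.0295 in PLB-985 cells and 218 ± 28.0, 115 ± 2.2 and 1.73 ± 0.696 in HL-60 cells (SD, n = 2 each, in the same order of states).

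**Figure D1:**
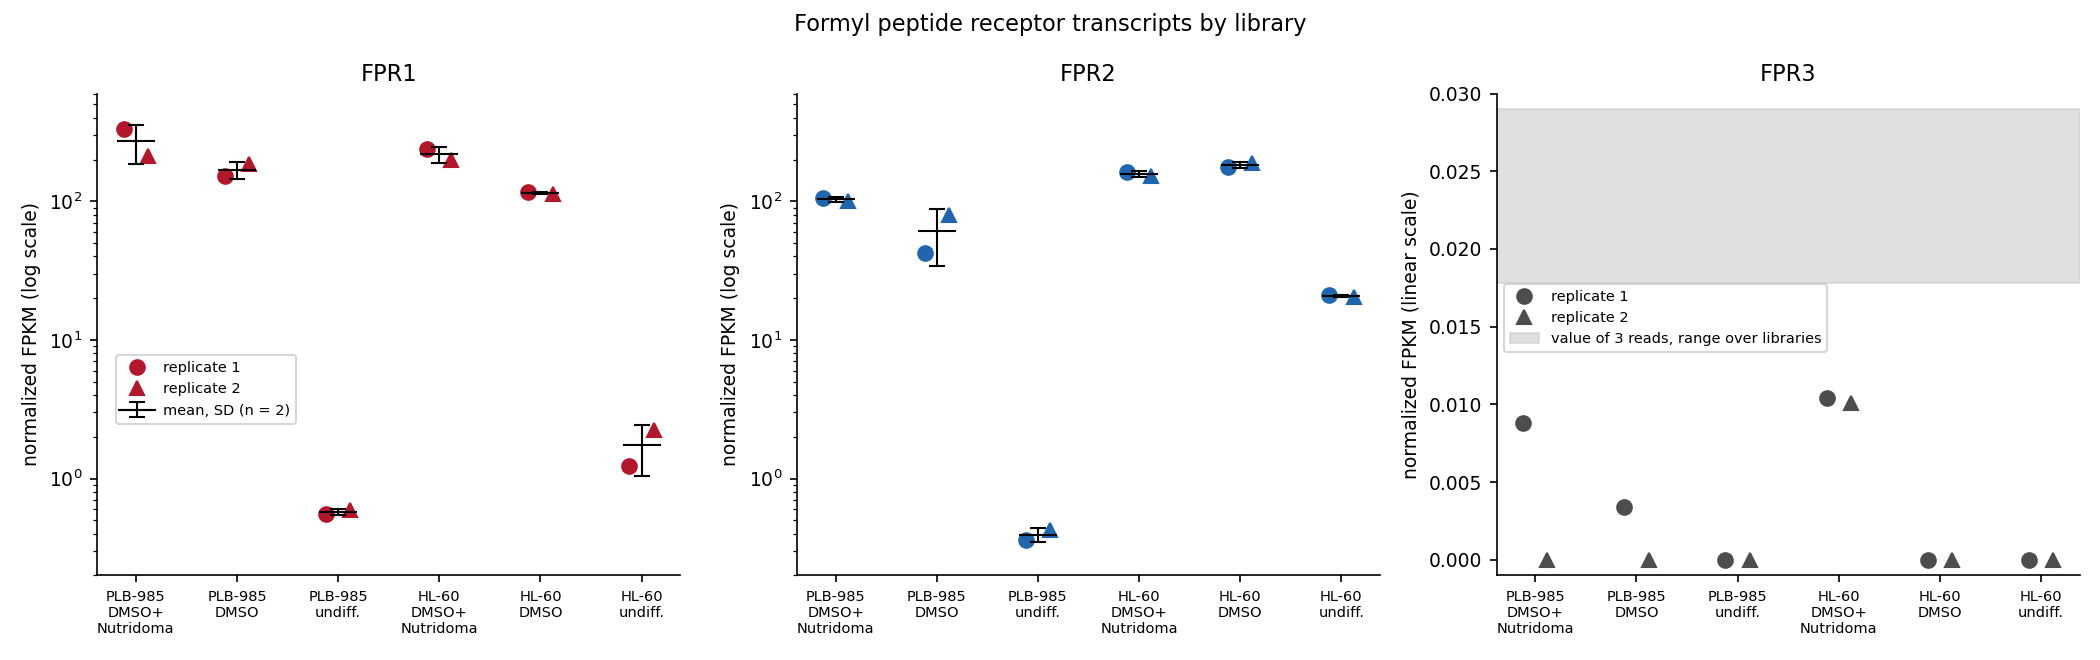
Normalized FPKM of FPR1, FPR2 (log axes) and FPR3 (linear axis) in the 12 replicated libraries; points are libraries, horizontal marks are means and bars are SD (n = 2), and the gray band is the value of 3 reads. Undifferentiated PLB-985 cells lie below 1 for FPR1 and FPR2, undifferentiated HL-60 cells lie near 20.7 for FPR2, and no FPR3 value reaches the value of 3 reads.

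FPR2 transcripts also rose in both lines, but the lines differed before differentiation. In PLB-985 cells, FPR2 had 106.4 and 100 normalized FPKM in DMSO with Nutridoma and 42.1 and 80.1 in DMSO, against 0.361 and 0.424 in undifferentiated cells. In HL-60 cells it had 163.3 and 151.9 in DMSO with Nutridoma and 177.0 and 189.3 in DMSO, against 20.95 and 20.44 in undifferentiated cells. Differentiated and undifferentiated libraries did not overlap in either line, again without a share over all genes. The DMSO-treated PLB-985 cultures were the least alike of any pair of replicates for either receptor, 0.91 apart on the log2 scale. In undifferentiated PLB-985 cells the values of both receptors correspond to an estimated 33.1 to 38.3 reads, which counting alone makes the least precise of these values. RNA was measured in bulk, so more expressing cells and more RNA per cell cannot be told apart.

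Changes were tested with limma on log2(normalized FPKM + 1), which understates the change of low values, over 13778 genes, and p-values were adjusted within each comparison by the Benjamini-Hochberg method. FPR1 and FPR2 were tested and FPR3 fell below the filter on low values. Against undifferentiated cells, FPR1 increased by 7.40 ± 0.25 in PLB-985 cells in DMSO with Nutridoma (log2 fold change ± SE, limma adjusted p = 2e-06). Of all 13778 genes it had the largest increase there, and also the largest in PLB-985 cells in DMSO, where it was 6.75. In HL-60 cells the increase ranked 12th in DMSO with Nutridoma, at 6.35, and 6th in DMSO, at 5.43. On the plain scale the mean FPR1 level was 476-fold that of undifferentiated PLB-985 cells in DMSO with Nutridoma and 295-fold in DMSO, and in HL-60 cells 126-fold and 66.3-fold. These folds are ratios of means of 2 libraries and carry the uncertainty of the low undifferentiated values.

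FPR2 rose by 6.23 ± 0.23 in PLB-985 cells in DMSO with Nutridoma (limma adjusted p = 3.4e-06), the 5th largest increase, and by 5.41 ± 0.23 in DMSO (adjusted p = 4.6e-06), the 10th largest. In HL-60 cells the increases were 2.87 ± 0.23 (adjusted p = 3.4e-05) and 3.09 ± 0.23 (adjusted p = 2.6e-05), at ranks 306 and 126. Both receptors that could be tested were thus higher in each of the 4 comparisons with undifferentiated cells. The comparisons of a line share their undifferentiated libraries, and a call is common among all genes: 59.8% of the genes tested passed the threshold of 0.05 in PLB-985 cells in DMSO with Nutridoma, 60.4% in PLB-985 cells in DMSO, 59.1% in HL-60 cells in DMSO with Nutridoma and 60.7% in HL-60 cells in DMSO. All 8 calls remained in each of 21 alternative analyses per comparison.

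**Figure D2:**
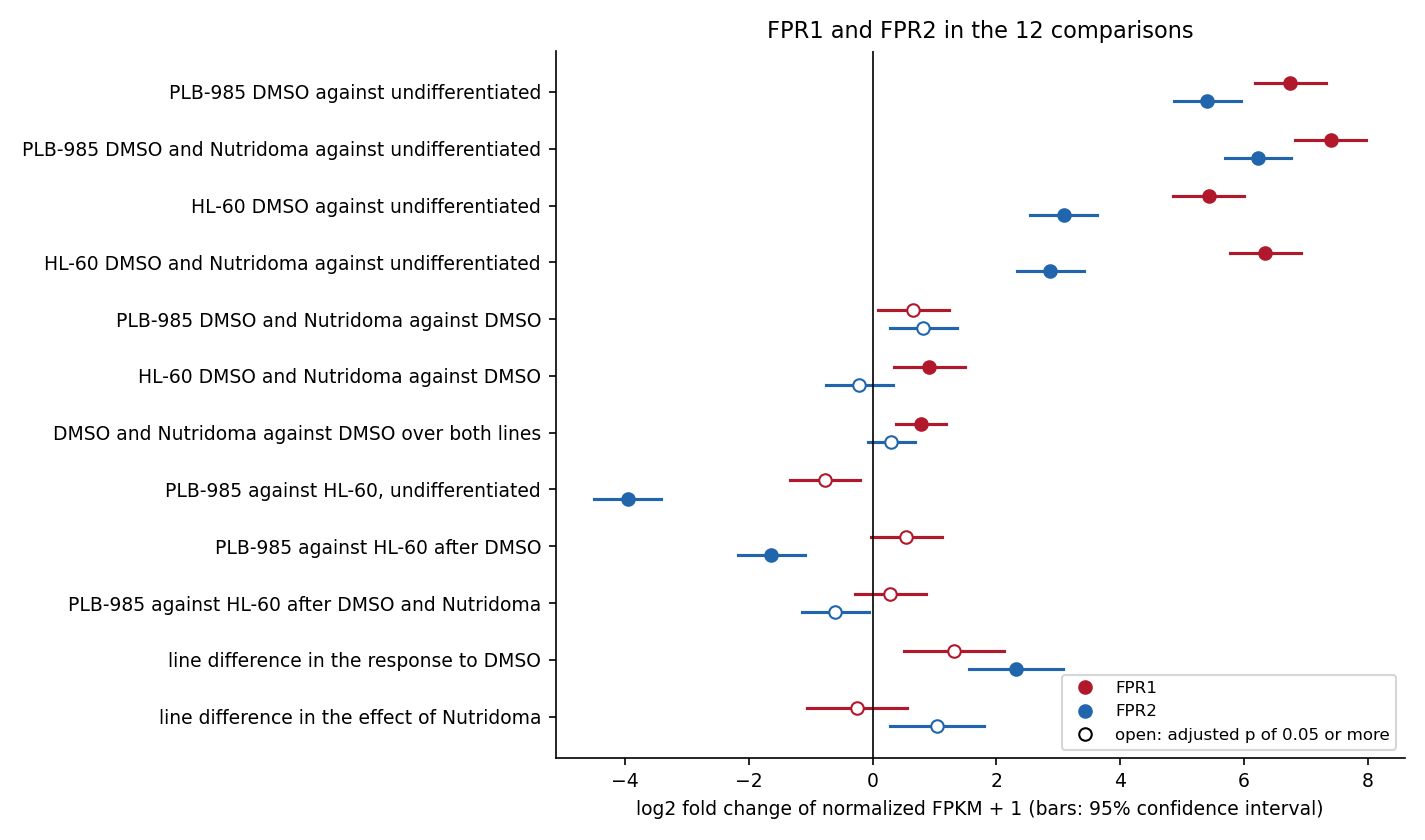
Log2 fold change of normalized FPKM + 1 for FPR1 (red) and FPR2 (blue) in the 12 comparisons, with 95% confidence intervals from limma; open symbols did not pass an adjusted p of 0.05. The increases with differentiation lie between 2.87 and 7.40, and the FPR2 difference between undifferentiated lines lies at -3.96.

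The study reported that Nutridoma raised FPR1 in PLB-985 cells at the cell surface and, considerably less, in mRNA. Varying FBS at fixed DMSO and Nutridoma, it attributed most of the increase in FPR1 staining to Nutridoma and found a weak dependence on FBS. No such series is among the libraries here. The comparison with DMSO asks whether the transcripts differed. FPR1 was higher in HL-60 cells in DMSO with Nutridoma than in DMSO by 0.92 ± 0.25 on the log2 scale (limma adjusted p = 0.043, 95% interval 0.34 to 1.49). The libraries of these groups did not overlap, but the share of all genes without overlap was not determined. In this comparison 16.5% of all genes passed. The call was not firm: it was made in 6 of 21 alternative analyses, with adjusted p between 0.026 and 0.22, and was lost without the replicate block (adjusted p = 0.072) and on leaving out either replicate of either group. In PLB-985 cells the FPR1 difference was 0.66 ± 0.25 and did not pass (adjusted p = 0.30, interval 0.08 to 1.23), where 1.05% of genes passed. Replicate 1 accounted for most of it, with 2.19-fold more FPR1 in DMSO with Nutridoma than in DMSO, compared with 1.14-fold in replicate 2. Over both lines the FPR1 difference was 0.79 ± 0.17 (adjusted p = 0.023), where 15.5% of genes passed. FPR1 was higher with Nutridoma in 4 of 4 same-numbered pairs, and the share of all genes that do so was not determined. This call was made in 14 of 20 alternatives and was lost without PLB-985 replicate 1 or 2 in DMSO, PLB-985 replicate 1 in DMSO with Nutridoma, or HL-60 replicate 1 or 2 in DMSO, with adjusted p up to 0.091.

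FPR2 did not pass in any comparison of DMSO with Nutridoma against DMSO. The difference was 0.82 ± 0.23 in PLB-985 cells (limma adjusted p = 0.17, interval 0.28 to 1.36) and -0.22 ± 0.23 in HL-60 cells (adjusted p = 0.56, interval -0.75 to 0.32). Leaving out PLB-985 replicate 2 in DMSO, the higher of that pair, brought the PLB-985 difference to 1.28 and past the threshold (adjusted p = 0.025) and the difference over both lines, 0.30 with all libraries (adjusted p = 0.25), to 0.53 (adjusted p = 0.021). Leaving out replicate 1 instead, the lower of that pair, brought them to 0.36 (adjusted p = 0.48) and 0.070 (adjusted p = 0.65). The line difference in the effect of Nutridoma was -0.26 for FPR1 (adjusted p = 0.78) and 1.03 for FPR2 (adjusted p = 0.28), where 0.515% of genes passed, so a different effect in the lines was not shown.

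Markers of another myeloid cell type moved in the same comparison. The 13 monocyte and macrophage markers summed to 845 and 678.2 normalized FPKM in HL-60 cells in DMSO with Nutridoma, against 125.6 and 136.3 in DMSO, and to 192.2 and 169.6 against 55.1 and 51.2 in PLB-985 cells. Of the 9 that were tested, 8 rose in HL-60 cells and 4 in PLB-985 cells, where 9.86% and 0.893% of all genes tested rose. VCAN passed the filter on low values only through HL-60 cells in DMSO with Nutridoma, at a mean of 2.22 there. Its other group means were 0.00225 or less, so a rise of VCAN there was largely fixed in advance. MRC1, C1QB, C1QC and MARCO fell below the filter and are not in these counts. CD14, the monocyte co-receptor for lipopolysaccharide, averaged 447 ± 99.9 against 49.8 ± 7.56 in HL-60 cells and 20.9 ± 3.34 against 0.448 ± 0.128 in PLB-985 cells (SD, n = 2 each). Neutrophil markers did not move as one in HL-60 cells: 1 of the 10 rose, AQP9, and 3 fell, CSF3R, FCGR3B and VNN2, with a median log2 change of -0.71, against 0.02 over all genes. CSF3R, the receptor for granulocyte colony-stimulating factor, averaged 37.2 in DMSO with Nutridoma against 108 in DMSO there, and VNN2 7.81 against 38.8. The sum of the 10, most of it S100A8 and S100A9, was 13560 and 11200 against 14220 and 15000. In PLB-985 cells AQP9 rose and 0 fell. MRC1, the macrophage mannose receptor, was at a mean of 0.178 in HL-60 cells in DMSO with Nutridoma and listed at 0 in DMSO. Of the 6 dendritic cell markers 3 were tested, of which 2 rose in HL-60 cells and 0 in PLB-985 cells. CLEC10A, tested among them, also passed the filter only through HL-60 cells in DMSO with Nutridoma, at a mean of 2.52. CD1C averaged 11.8 against 2.63 in HL-60 cells, and XCR1 and CLEC9A were below 0.01 in all 4 of these groups. Monocytes also carry formyl peptide receptors, and the part of these monocyte and neutrophil markers in the FPR1 difference was not tested.

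Before differentiation, FPR2 set the lines apart. Undifferentiated PLB-985 cells had 0.361 and 0.424 normalized FPKM, against 20.95 and 20.44 in undifferentiated HL-60 cells, a difference of -3.96 ± 0.23 (limma adjusted p = 4.6e-05), and on the plain scale HL-60 cells had 52.8-fold more. The FPR2 difference was the 27th largest in size of 13778 genes, where 14.1% of genes passed. FPR1 was 3.03-fold higher in undifferentiated HL-60 cells by means, and its difference of -0.77 ± 0.25 did not pass (adjusted p = 0.080). It passed in 5 of 20 alternatives, among them an added constant of 0.1, at which it was -1.39 (adjusted p = 0.016).

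After differentiation the gap in FPR2 was narrower. The FPR2 values of PLB-985 and HL-60 cells in DMSO with Nutridoma did not overlap, for which no share over all genes was determined. The difference of PLB-985 from HL-60 cells, -0.61 ± 0.23, did not pass (limma adjusted p = 0.099, interval -1.14 to -0.07), where 23.9% of genes passed. It passed in 2 of 20 alternatives, without either replicate of PLB-985 cells in DMSO (adjusted p = 0.011 in each, at the same -0.61), and the adjusted p ran up to 0.38 in the others. In DMSO the difference was -1.64 ± 0.23 (adjusted p = 0.0042), where 10.4% of genes passed. For FPR1 the differences were 0.28 (adjusted p = 0.45) and 0.54 (adjusted p = 0.23). The response to DMSO differed between the lines for FPR2, by 2.32 ± 0.33 (adjusted p = 0.017), where 1.31% of genes passed, with the larger response in PLB-985 cells. This call was made in 14 of 20 alternatives and lost on leaving out either replicate of undifferentiated PLB-985, undifferentiated HL-60 or DMSO-treated HL-60 cells (adjusted p between 0.051 and 0.10, difference 2.22 to 2.43). For FPR1 it was 1.32 ± 0.35 and did not pass (adjusted p = 0.15).

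Ordered by mean level, FPR1 ran through PLB-985 and HL-60 cells in DMSO with Nutridoma, PLB-985 and HL-60 cells in DMSO, undifferentiated HL-60 cells and undifferentiated PLB-985 cells. None of the 3 differences between lines in that order passed. For FPR2 the order was HL-60 cells in DMSO, HL-60 and then PLB-985 cells in DMSO with Nutridoma, PLB-985 cells in DMSO, undifferentiated HL-60 cells and undifferentiated PLB-985 cells, and the only neighbors shown to differ among those compared were the undifferentiated lines.

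FPKM is a value per transcript length, so the receptors can be set beside each other within a library. FPR1 exceeded FPR2 in all 8 PLB-985 libraries, those of day 2 and day 4 included. The ratio of FPR1 to FPR2 was 3.13 and 2.11 in PLB-985 cells in DMSO with Nutridoma, 3.62 and 2.32 in DMSO, and 1.53 and 1.40 in undifferentiated cells. In HL-60 cells it was 1.46 and 1.31 in DMSO with Nutridoma, 0.658 and 0.599 in DMSO, and 0.0592 and 0.109 in undifferentiated cells. By FPKM, the higher receptor thus depended on the state in HL-60 cells: FPR2 in undifferentiated and DMSO-treated cells, FPR1 in DMSO with Nutridoma. The last order rests on scaling by length. Estimated reads there were 13000 and 11200 for FPR1, at 1298 bases, and 13300 and 12800 for FPR2, at 1938 bases. In undifferentiated PLB-985 cells, at 33.1 to 38.3 reads for both receptors, the order rests on length as well. Both genes have further annotated transcripts, whose effect on the ratios was not tested. These ratios are given with no test. FPR1 made up 59.3% and 56.7% of the receptor sum in HL-60 cells in DMSO with Nutridoma, against 39.7% and 37.4% in DMSO.

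**Figure D3:**
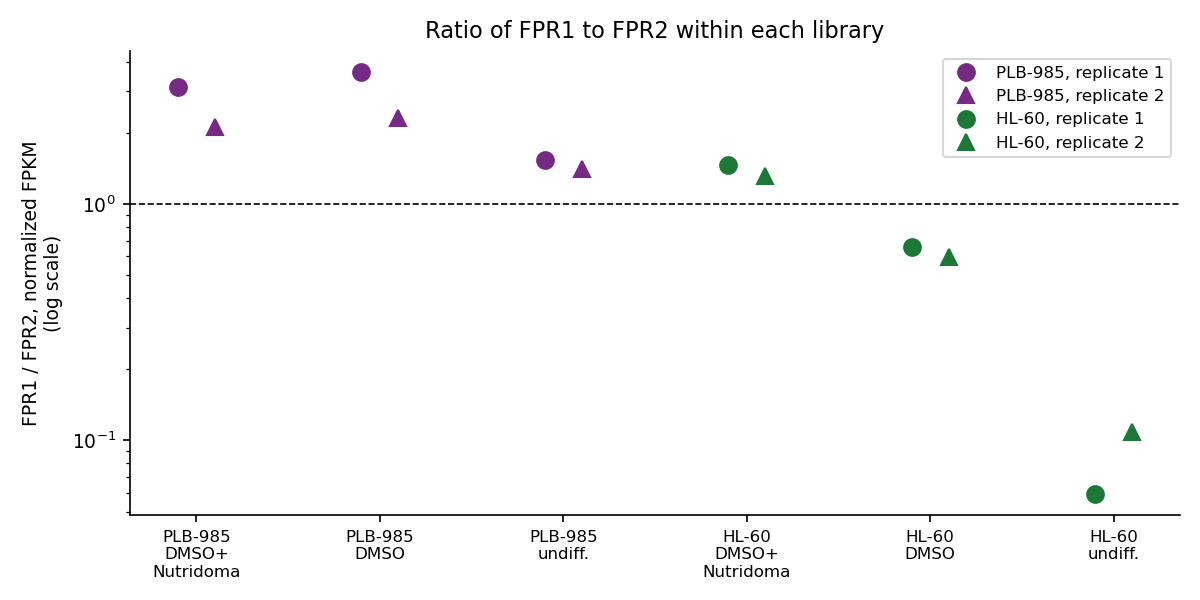
Ratio of FPR1 to FPR2 in normalized FPKM (log axis) in the 12 replicated libraries, by line and state; the dashed line marks equal levels. PLB-985 libraries lie between 1.40 and 3.62, and HL-60 libraries run between 0.0592 in an undifferentiated and 1.46 in a DMSO with Nutridoma culture.

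In the time course of PLB-985 cells in DMSO with Nutridoma, both receptors were far above their undifferentiated levels by day 2 and higher at each later time. FPR1 was at 0.572 in undifferentiated cells, 86.6 on day 2, 182 on day 4 and 272 on day 6 (means of 2 libraries for undifferentiated cells and day 6). FPR2 was at 0.392, 29.0, 46.5 and 103 at the same times. With 1 library each, day 2 and day 4 have no replicate check. The library of day 2 had a total FPKM of 790253, within the 739094 to 873607 of the replicate 2 libraries, and that of day 4 had 997226, within the 943987 to 1082040 of replicate 1, so time and experiment may be mixed between these days, which was not tested. The FPR1 value of day 4 was below both day-6 values and that of FPR2 was below both as well.

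**Figure D4:**
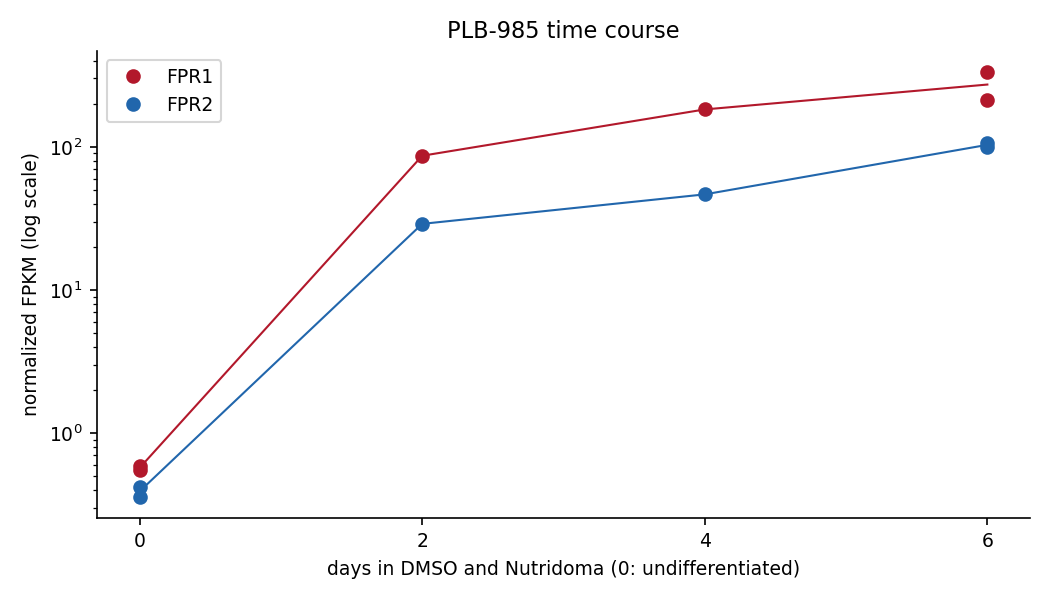
FPR1 and FPR2 in normalized FPKM (log axis) against days in DMSO with Nutridoma in PLB-985 cells; points are libraries and lines join the means, with 2 libraries on days 0 and 6 and 1 on days 2 and 4. FPR1 lies above FPR2 on every day, at 86.6 against 29.0 on day 2.

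FPR3 was close to the limit of detection in every library. It was listed at 0 in 10 of 14 libraries and at 0.0104 and 0.0101 normalized FPKM in HL-60 cells in DMSO with Nutridoma, 0.00878 in replicate 1 of PLB-985 cells in DMSO with Nutridoma and 0.00339 in replicate 1 of PLB-985 cells in DMSO. By the value of a single read these 4 correspond to an estimated 1.15, 1.15, 1.16 and 0.57 reads. A count of 0 allows up to 3 reads, which would be 0.0178 to 0.0290 normalized FPKM, so a level below that cannot be told from none; this covers counting error only. A listed 0 can also be a failed estimate in these tables: APP was listed at 0 in undifferentiated PLB-985 replicate 2 beside 179.1 in replicate 1. Without the filter, FPR3 passed in no comparison among 30541 genes.

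Upstream of the start sites, the RefSeq windows from 250 bases before to 50 after the start held matches to 3 of 4 motifs searched, on both strands. One window was found for FPR1, a pair for FPR2 and 0 for FPR3. The motifs were GAGGAA (PU.1), TTNNGNAA (C/EBP), TGTGGT (RUNX) and TTCNNNGAA (STAT), which 27.9%, 36.8%, 13.1% and 7.66% of all 35116 windows hold. FPR1 and the upstream FPR2 window each had a C/EBP match, FPR2 had a STAT match there, FPR1 had a RUNX match downstream of its start, and the other FPR2 window had none. The C/EBP and STAT matches are printed with 30 bases each on the strand of the gene, the match in capitals, since these are the factors whose transcripts are described with the receptors. On GRCh38, they lie at chr19:51752049-51752078 (minus strand), chr19:51761063-51761092 and chr19:51761026-51761055 (plus strand), in exons that GENCODE 44 gives to a longer FPR2 transcript:

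FPR1 C/EBP: aggtacatgagTTTCTAAAcaggcccagcc
FPR2 C/EBP: cccaaggtgtcTTCTGAAAattataagaaa
FPR2 STAT: acacattggtTTCTAAGAAgagtccgctga

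A match is a description of the sequence and no evidence of binding. Of the 9 factors of these families, 6 rose and 3 fell in HL-60 cells in each protocol and in PLB-985 cells in DMSO with Nutridoma. In PLB-985 cells in DMSO 5 rose and 1 fell. In these 4 comparisons 59.1% to 60.7% of all genes passed, and 24% to 26% rose. SPI1, which encodes PU.1, averaged 230 in DMSO with Nutridoma, 202 in DMSO and 114 in undifferentiated PLB-985 cells. CEBPD rose by 2.43 and 1.70 in PLB-985 cells and by 0.72 and 0.99 in HL-60 cells in DMSO with Nutridoma and in DMSO, while CEBPE, a factor of granule gene expression, fell by 3.53 in HL-60 cells in DMSO with Nutridoma (limma adjusted p = 0.00023). STAT3 was the only one of the 9 that rose with Nutridoma in PLB-985 cells, by 0.72 ± 0.10 (adjusted p = 0.018), and it rose by 0.74 ± 0.10 in HL-60 cells (adjusted p = 0.0044).

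The list of ligands and peptidases holds 8 genes. Of the 6 tested, 3 rose and 1 fell in PLB-985 cells in DMSO with Nutridoma and 2 rose and 1 fell in DMSO. In HL-60 cells 1 rose and 1 fell in each. Of all genes tested, 59.1% to 60.7% passed and 24% to 26% rose in these 4 comparisons. CTSG, cathepsin G, whose cleavage products and activity have been tied to formyl peptide receptors, fell in all 4, with means of 3.92 ± 1.65, 2.02 ± 1.06 and 68.9 ± 20.2 in PLB-985 cells in DMSO with Nutridoma, in DMSO and undifferentiated. ANXA1, annexin A1, an FPR2 ligand, averaged 107 ± 4.57 in PLB-985 cells in DMSO with Nutridoma, against 24.2 ± 1.68 in DMSO, a rise of 2.10 ± 0.31 (limma adjusted p = 0.024), and was at 57.4 ± 22.7 against 38.0 ± 7.53 in HL-60 cells, where it did not pass (adjusted p = 0.27). ANPEP, an aminopeptidase of the myeloid surface, rose with DMSO and Nutridoma in both lines, whereas MME, neprilysin, which degrades formyl peptides, was listed at 0 in every group.

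Most of the 29 G protein and effector genes downstream of the receptors rose. Of the 28 tested, 21 rose and 1 fell in PLB-985 cells in DMSO with Nutridoma and 18 rose and 1 fell in DMSO. In HL-60 cells 17 rose and 2 fell and 17 rose and 3 fell. Of all genes tested, 24%, 24.6%, 25.5% and 26% rose in these comparisons. The median log2 change of the 28 was 0.92, 0.82, 0.73 and 0.78 in these comparisons, against medians of -0.16, -0.15, -0.12 and -0.11 over all genes tested. GNAI2, the Gi alpha subunit most abundant in leukocytes, averaged 379 in DMSO with Nutridoma, 329 in DMSO and 122 in undifferentiated PLB-985 cells, and 393, 350 and 143 in HL-60 cells. GNAI1 was listed at 0 throughout. GNG2, a gamma subunit, rose by 3.72 and 4.11 in PLB-985 cells and by 2.03 and 4.21 in HL-60 cells in DMSO with Nutridoma and in DMSO. PIK3R5, a regulatory subunit of phosphoinositide 3-kinase gamma, rose by 3.10 and 3.25 in PLB-985 cells and by 2.34 and 1.48 in HL-60 cells, and PREX1, an exchange factor for Rac, by 2.50 and 2.56 and by 1.56 and 2.12. RAC2, the Rac of hematopoietic cells, rose by 1.15 to 1.54. GNB4, a beta subunit, fell in all 4 comparisons.

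With Nutridoma against DMSO, 0 of the 28 passed in PLB-985 cells, where 1.05% of all genes passed. In HL-60 cells, where 16.5% of all genes passed, 3 of the 28 rose and 1 fell. The one that fell was GNG2, at 7.35 ± 1.42 against 36.5 ± 0.98 (SD, n = 2 each), a decrease of 2.18 on the log2 scale (limma adjusted p = 0.0018), in the same cells in which FPR1 was higher.

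The list of desensitization genes holds 10 that act to switch off signals of G protein-coupled receptors in general. Their action on formyl peptide receptors was not tested. Of the 9 tested, 6 rose in each of the 4 comparisons with undifferentiated cells, where 24% to 26% of all genes tested rose. In each comparison the other 3 did not pass, except that GRK2 fell in HL-60 cells in DMSO with Nutridoma. In either direction 59.1% to 60.7% of all genes passed, and with 9 genes no difference from that share was shown. ARRB2, an arrestin, rose by 1.85 and 1.74 in PLB-985 cells and by 1.43 and 1.27 in HL-60 cells in DMSO with Nutridoma and in DMSO. RGS2, which speeds the return of G proteins to the resting state, rose by 3.44 and 2.41 in PLB-985 cells and by 4.19 and 3.90 in HL-60 cells. With Nutridoma against DMSO, GRK3 rose in HL-60 cells, where 16.5% of all genes passed, and 0 passed in PLB-985 cells, where 1.05% did.

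The 5 genes whose pattern over the 14 libraries was most like FPR1 included GNAI2 (Pearson's r = 0.992), ITGAX (0.991), an integrin alpha chain, UNC119 (0.991) and S100A9 (0.988), a calcium-binding protein of neutrophils and monocytes. For FPR2 they were AGTRAP (0.975), SIGLEC5 (0.975, the row with that symbol), NFAM1 (0.975), CPPED1 (0.970) and TBC1D2 (0.970). All of those named were higher in DMSO-treated than in undifferentiated cells by means in both lines, which any gene of the differentiated state shares. These genes were picked for the highest r, and neither receptor was among the 5 of the other. Between the receptors r was 0.851 over 14 libraries. Of 12392 genes, FPR2 ranked 1167th in likeness to FPR1, and FPR1 ranked 397th in likeness to FPR2. Within the lines r was 0.992 over 8 PLB-985 and 0.979 over 6 HL-60 libraries. These r values and ranks rest on the contrast of differentiated and undifferentiated libraries, which share lines and experiments.

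Among the 15 protein-coding genes within 250 kb of the cluster, 13 were tested. SIGLEC5, SIGLEC14 and SPACA6, all on the FPR1 side, rose in all 4 comparisons with undifferentiated cells, as did 15.4% of all genes tested. Farther out on the same side, SIGLEC6 and SIGLEC12 fell in HL-60 cells, with log2 changes of -1.83 and -1.01 in DMSO with Nutridoma and -1.51 and -0.56 in DMSO, and passed in neither protocol in PLB-985 cells. ZNF175 on that side and ZNF350 and ZNF615 on the other rose in HL-60 cells in DMSO, by 0.74, 0.34 and 0.70, and in no other of the 4. SIGLEC14, an activating sialic acid receptor of myeloid cells, averaged 14.2 in DMSO with Nutridoma, 13.2 in DMSO and 0.256 in undifferentiated PLB-985 cells and 51.0, 48.0 and 5.76 in HL-60 cells, and SPACA6 rose by 1.87 to 2.57. The nearest gene on that side, HAS1, a hyaluronan synthase, was listed at 0 throughout, and ZNF577, whose span overlaps FPR3, passed in none. On the far side, ZNF649 and ZNF614 fell in PLB-985 cells in both protocols, and ZNF614 also in HL-60 cells in DMSO with Nutridoma. SIGLEC5 and SIGLEC14 are near-identical over part of their length, and GENCODE 44 gives the name SIGLEC5 to a pair of overlapping loci, so their values are uncertain. The deposited table has a row for each: the neighbor is the locus that GENCODE 44 gives as protein-coding, matched by gene ID, at a mean of 7.26 in PLB-985 cells in DMSO, and the gene whose pattern was like FPR2 is the row that carries the symbol, at 16.7.

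**Figure D5:**
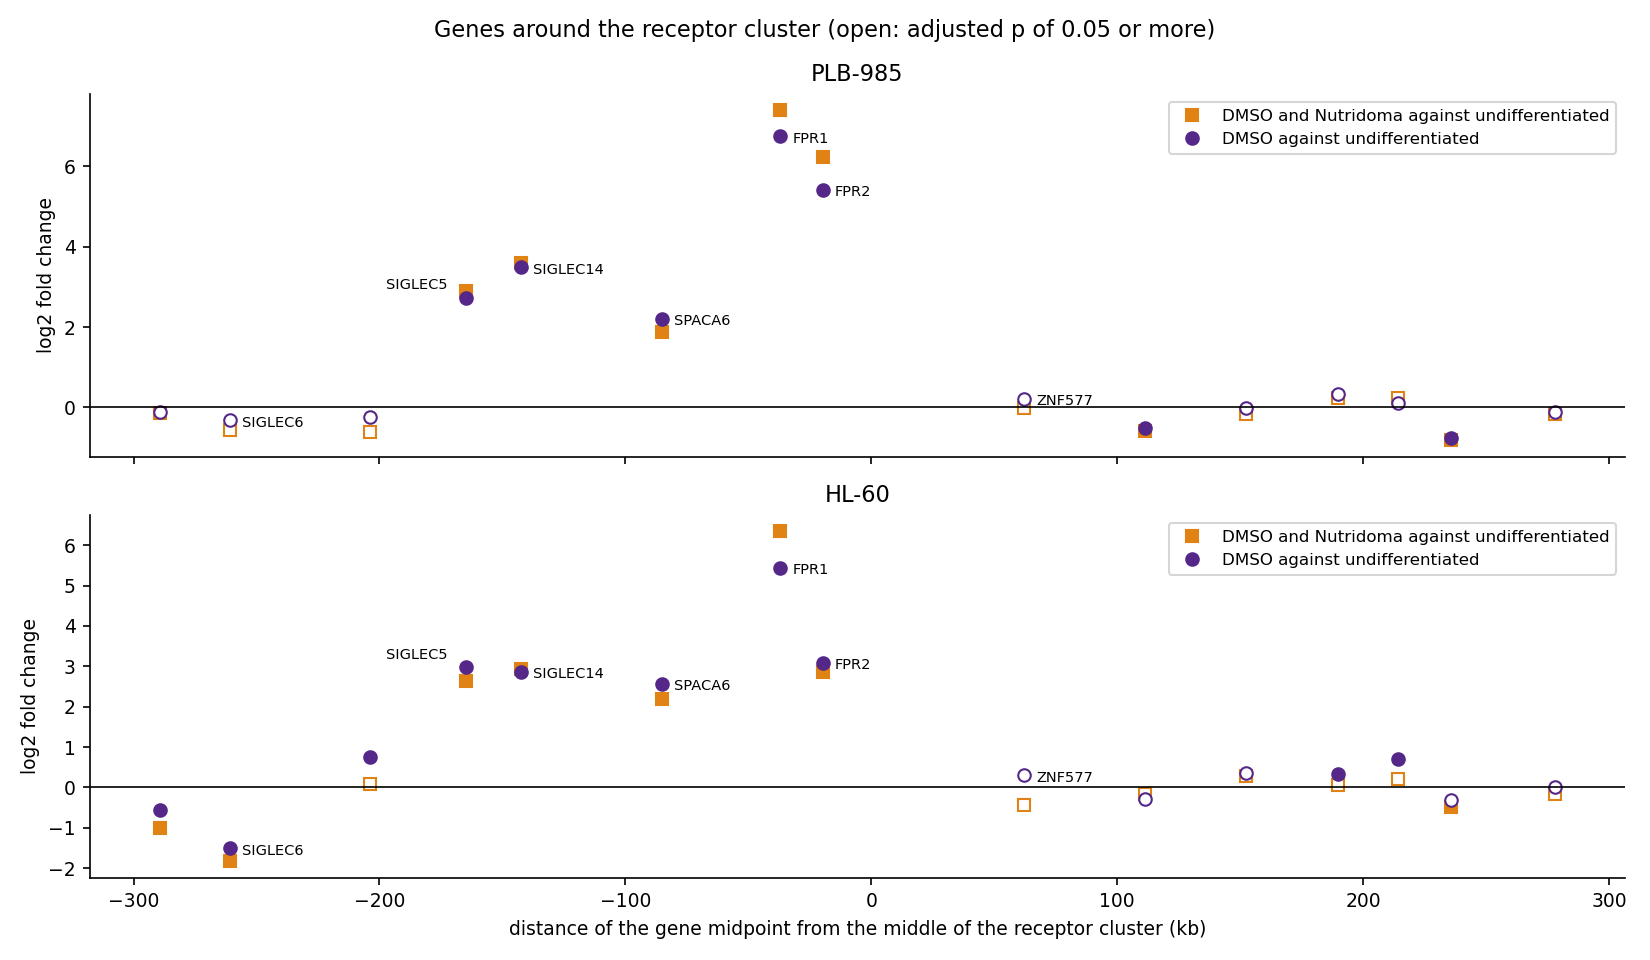
Log2 fold change against undifferentiated cells for FPR1, FPR2 and the 13 tested genes within 250 kb, by distance of the gene midpoint from the middle of the cluster, in PLB-985 (top) and HL-60 cells (bottom); open symbols did not pass. The 3 genes that rise beside the receptors in all 4 comparisons lie on one side, and the genes on the other side stay between -0.82 and 0.70.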

How the data were processed

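RNA of 14 PLB-985 and HL-60 cultures was sequenced as single-end reads of 75 bases. The authors aligned them with STAR 2.4 to GRCh38.p5 and deposited FPKM values from Cufflinks 2.2.1. The deposited log10 values are the log10 of FPKM times 1 factor per library, which the authors derived from uniformly expressed genes, plus 0.0001, and they were converted back to normalized FPKM. Read depth was estimated from the FPKM-times-length step of 7677 genes with 1 transcript of 1000 to 10000 bases. No sample column was left unused.

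Groups followed the sample labels. Using limma 3.58.1 in R 4.3.3 (lmFit, eBayes with trend), log2(normalized FPKM + 1) was fitted over 13778 rows with at least 1 in at least 2 of the 12 replicated libraries, with 6 groups and the replicate number as a block (5 residual degrees of freedom). The study repeated the experiment on separate days without tying the numbers to them, and same-numbered libraries deviated together (r 0.65 to 0.85 over 15 pairs of groups). Adjusted p-values are within each of 12 comparisons, two-sided, threshold 0.05. P-values measure the spread between these cultures. The fit was tested on simulated data. Python 3.11.15 with pandas 2.3.3, Biopython and matplotlib did the rest.

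Genes named are the 3 receptors, 9 fixed lists, the 5 genes most alike to FPR1 and to FPR2, and the neighbors within 250 kb, except that some genes the rule selects are not reported here, though list counts include them. The members and the lists were chosen with earlier results of these data known. Promoter windows are from RefSeq (GRCh38), coding sequences from GENCODE 44; a comparison of the proteins was planned and not made, and coding bases were compared in its place. Alternatives were no block, other scalings, constants, filters and variance models, 1 line alone, and each library left out.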

Additional observations from a re-analysis of the deposited data

Results flagged for a closer look

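The response of FPR2 to DMSO differed between the lines, by 2.32 on the log2 scale (limma adjusted p = 0.017, interval 1.56 to 3.08). FPR2 increased by 5.41 in PLB-985 cells and by 3.09 in HL-60 cells, and it was higher in DMSO in both replicates of each line. Undifferentiated cells had 0.392 ± 0.0447 normalized FPKM in PLB-985 and 20.7 ± 0.361 in HL-60 (SD, n = 2 each), and cells in DMSO had 61.1 ± 26.9 and 183 ± 8.71. The size of the difference depends on the constant added before the logarithm, at 3.75 with 0.1 and 2.92 with 0.5, and the cause of the difference was not tested.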

How the results depend on the processing

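FPR1 and FPR2 were recomputed under 492 combinations of comparison and alternative, of which 454 kept the direction and the side of the threshold. All increases with differentiation, the lower FPR2 of undifferentiated PLB-985 cells and that after DMSO held in each. The results below are the exceptions. FPR1 in HL-60 cells with Nutridoma against DMSO (0.92) did not pass without the replicate block (0.92), with FPKM lacking the authors' factors (0.79), with median-of-ratios scaling (0.96), with an added constant of 0.1 or 0.5 (0.92 each), with no filter (0.92) or with HL-60 libraries alone (0.92). Leaving out each library in turn gave 0.77 to 1.06, and it failed in 8 of 12. The FPR1 difference over both lines failed with no filter (0.79), and leaving out libraries gave 0.59 to 0.98. FPR1 between undifferentiated lines passed with an added constant of 0.1 (-1.39) or 0.5 (-1.02), and leaving out libraries gave -1.10 to -0.45. Without PLB-985 replicate 1 in DMSO with Nutridoma, FPR1 against HL-60 cells in that medium turned to -0.10 (range to 0.67), and without replicate 2 the line difference in the effect of Nutridoma turned to 0.12 (range down to -0.64); neither passed in any fit. For FPR2, leaving out libraries gave 0.36 to 1.28 for Nutridoma against DMSO in PLB-985 cells, 0.070 to 0.53 over both lines, -0.75 to -0.46 between lines in DMSO with Nutridoma, where it passed without either PLB-985 library in DMSO, and 1.86 to 2.79 for the line difference in the response to DMSO. The replicate block changed no other receptor call. The cause of these changes was not tested.

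The share of all genes that passed, which the receptors are read against, moved more. Without the replicate block the count was 70 in place of 145 for Nutridoma against DMSO in PLB-985 cells, 839 in place of 2269 in HL-60 cells and 958 in place of 2139 over both. Between the lines it was 1145 in place of 1947 in undifferentiated cells, 801 in place of 1428 in DMSO and 1823 in place of 3298 in DMSO with Nutridoma, and for the line differences 114 in place of 180 and 35 in place of 71. With 1 line alone the count with Nutridoma was 360 for PLB-985 and 256 for HL-60. No filter gave 1462 for HL-60 cells with Nutridoma and 313 and 130 for the line differences, an added constant of 0.1 gave 77 and 11, and a filter of 5 gave 89 and 26. Leaving out libraries gave 29 to 343 for PLB-985 cells with Nutridoma, 274 to 3066 for HL-60 cells, 702 to 2868 over both, 751 to 2305, 460 to 1833 and 1371 to 3788 between lines, and 44 to 260 and 10 to 921 for the line differences.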
